A study of Homo sapiens with 6 samples.

Results

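The cytosolic ribosomal proteins are the protein components of the ribosome outside the mitochondria. Their messenger RNAs were followed here in A375 cells, an established human melanoma line, with and without knockdown of UBE2S. Members were all probe sets whose annotation holds 1 gene symbol of the form RPL or RPS with digits, with the letters A, L, X or Y allowed after them, or RPSA or RPLP0 to RPLP2, and with RPS6K kinases left out. This gave 178 of the 49293 probe sets that are not array controls, for 69 of 18132 genes, 45 of the large subunit and 24 of the small subunit. RPLP0, RPSA, RPS27A and others that the form allows for are not analysed here. Knockdown cells carried a lentiviral short hairpin RNA against UBE2S, a ubiquitin-conjugating enzyme of the anaphase-promoting complex, and were compared with control A375 cells. There were 3 arrays of each group, from replicates that the labels call biological. The sources used here do not give what the control cells received, how many hairpins or clones were used or the time after infection. In such bulk RNA, fewer cells of a type and less RNA per cell cannot be told apart.

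The deposited values were log2 expression centred for each probe set on the median of the 6 arrays, which leaves no levels, and all changes are knockdown minus control. The number of arrays limits the precision. UBE2S itself stood at 1.06, 1.01 and 1.01 in the control arrays and at -1.13, -1.05 and -1.01 in the knockdown arrays, a change of -2.09 (SE 0.04) on the log2 scale. The centred values give no level of cell type markers, but their rounding shows whether a probe set lay in a high, middle or low signal range. Of 8 melanocyte markers SOX10 and S100B had a probe set in the high range, 5 reached the middle and TYRP1 only the low range. Of 13 markers of fibroblasts, keratinocytes and blood cells 1, KRT10, reached the high range, 9 the middle and 3 only the low range. Of the array's 23 background control probe sets only 13 lay in the low range, so reaching the middle range does not show expression. Of the melanocyte markers 2 rose and 1 fell, and of the 13 others 3 rose and 2 fell. These counts are to be read beside all genes, of which 21.4% rose and 18.6% fell.

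A ribosome has a large subunit, which forms peptide bonds and holds the exit tunnel, and a small subunit, which reads the messenger RNA, and most of their proteins are present in a single copy and made in balanced amounts. In mammals their messenger RNAs typically begin with a 5′ terminal oligopyrimidine (TOP) tract, a cytosine followed by pyrimidines, through which the mTOR pathway and the RNA-binding protein LARP1 control translation. Transcription of the genes is promoted by MYC among others. Ribosomal protein genes also have many processed pseudogenes, so that array probes can read near-identical copies. The array marks probe sets that may do so with the endings _s_at and _x_at.

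The start sites of some members are shown because the TOP tract is the feature that most members share beyond their names. Each line gives the 30 bases around an annotated start, 15 on either side, 5′ to 3′, from the RefSeq table of GRCh38.p14, with the tract in capitals where a cytosine at the start is followed by at least 4 pyrimidines. The tracts of RPL7A and RPL39 run past the last base shown. Where a gene has several annotated starts the one with the longest tract is shown. The first 5 are among the members that fell furthest, the next 4 did not pass the test or are parents of a paralogue, and the last 2 are paralogues.
RPL27A (chr11:8682777-8682806, + strand): ttggcgaaggccttcCTTTTTCgtctgggc
RPL22 (chr1:6199581-6199610, - strand): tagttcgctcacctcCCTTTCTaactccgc
RPL35A (chr3:197950175-197950204, + strand): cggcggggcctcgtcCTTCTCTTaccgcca
RPS14 (chr5:150449725-150449754, - strand): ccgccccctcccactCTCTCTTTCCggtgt
RPL38 (chr17:74203663-74203692, + strand): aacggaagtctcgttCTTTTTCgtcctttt
RPL7A (chr9:133348203-133348232, + strand): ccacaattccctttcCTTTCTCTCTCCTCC
RPS27 (chr1:153990747-153990776, + strand): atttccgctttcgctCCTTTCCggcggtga
RPL39 (chrX:119791616-119791645, - strand): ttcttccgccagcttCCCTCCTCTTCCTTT
RPL10 (chrX:154398362-154398391, + strand): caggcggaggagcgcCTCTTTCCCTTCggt
RPS27L (chr15:63157463-63157492, - strand): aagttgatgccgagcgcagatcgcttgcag
RPL10L (chr14:46651767-46651796, - strand): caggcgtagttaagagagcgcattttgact

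Of the 57 members with an entry in that table, 41 (71.9%) had such a tract exactly at an annotated start, against 6.32% of the 14425 measured genes with an entry. The paralogues RPS27L, RPL10L and RPL36AL had none at theirs, and neither had RPL32, a member that fell. Of the paralogues outside the naming form, RPL22L1 had a tract of 6 bases, and RPL26L1 and RPL7L1 had none. The ETS factor motif CCGGAAG, searched on both strands from 250 bases before to 50 after each start, was present in 38.6% of the members and 16.9% of the genes. The E-box CACGTG, which MYC binds with MAX, was present in 7.02% and 10.9%. The YY1 motif AAGATGGC was found in 10.5% of the members and 4.83% of the genes, and the GC box GGGCGG in 63.2% and 65.7%. Matches are letters in a window and show no binding.

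Messenger RNAs of cytosolic ribosomal proteins were lower in UBE2S knockdown cells, mostly by small amounts. Of the 69 genes, 49 fell, 1 rose and 19 did not pass the test, where over all 18132 genes 18.6% fell, 21.4% rose and so 40.1% changed (limma, Benjamini-Hochberg adjusted p under 0.05 over all genes). The median change was -0.17, which leaves 88.6% of the control signal, against -0.0038 over all genes. In the large subunit 31 of 45 fell and 1 rose (median -0.15). In the small subunit 18 of 24 fell and 0 rose (median -0.21), and at an unadjusted p under 0.05 in limma the counts were also 18 and 0. In 58 of the 69 every knockdown array lay below every control array, as in 23.9% of all genes, and in 1 every knockdown array lay above, as in 26.2%. A fall of at least 1.5-fold was found in 2 members, RPL27A and RPS2, or 2.90%, near the 2.16% over all genes.

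The arrays of a group lay close together. Averaged over the 69 genes, the centred value was 0.108, 0.095 and 0.094 in the control arrays and -0.110, -0.108 and -0.108 in the knockdown arrays. In the knockdown arrays 63 to 65 of the 69 members lay below their centre, and in the control arrays 2 to 8 did. Centring on the median of the 6 arrays ties these counts together, so the second follows largely from the first. Such counts were not made over all genes. Without the _x_at probe sets 51 genes could be tested and 31 of them fell, where 18.1% of all genes did, and with only probe sets free of the endings _a_at, _s_at and _x_at 14 of 34 fell, where 11.8% of all genes did.

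**Figure D1:**
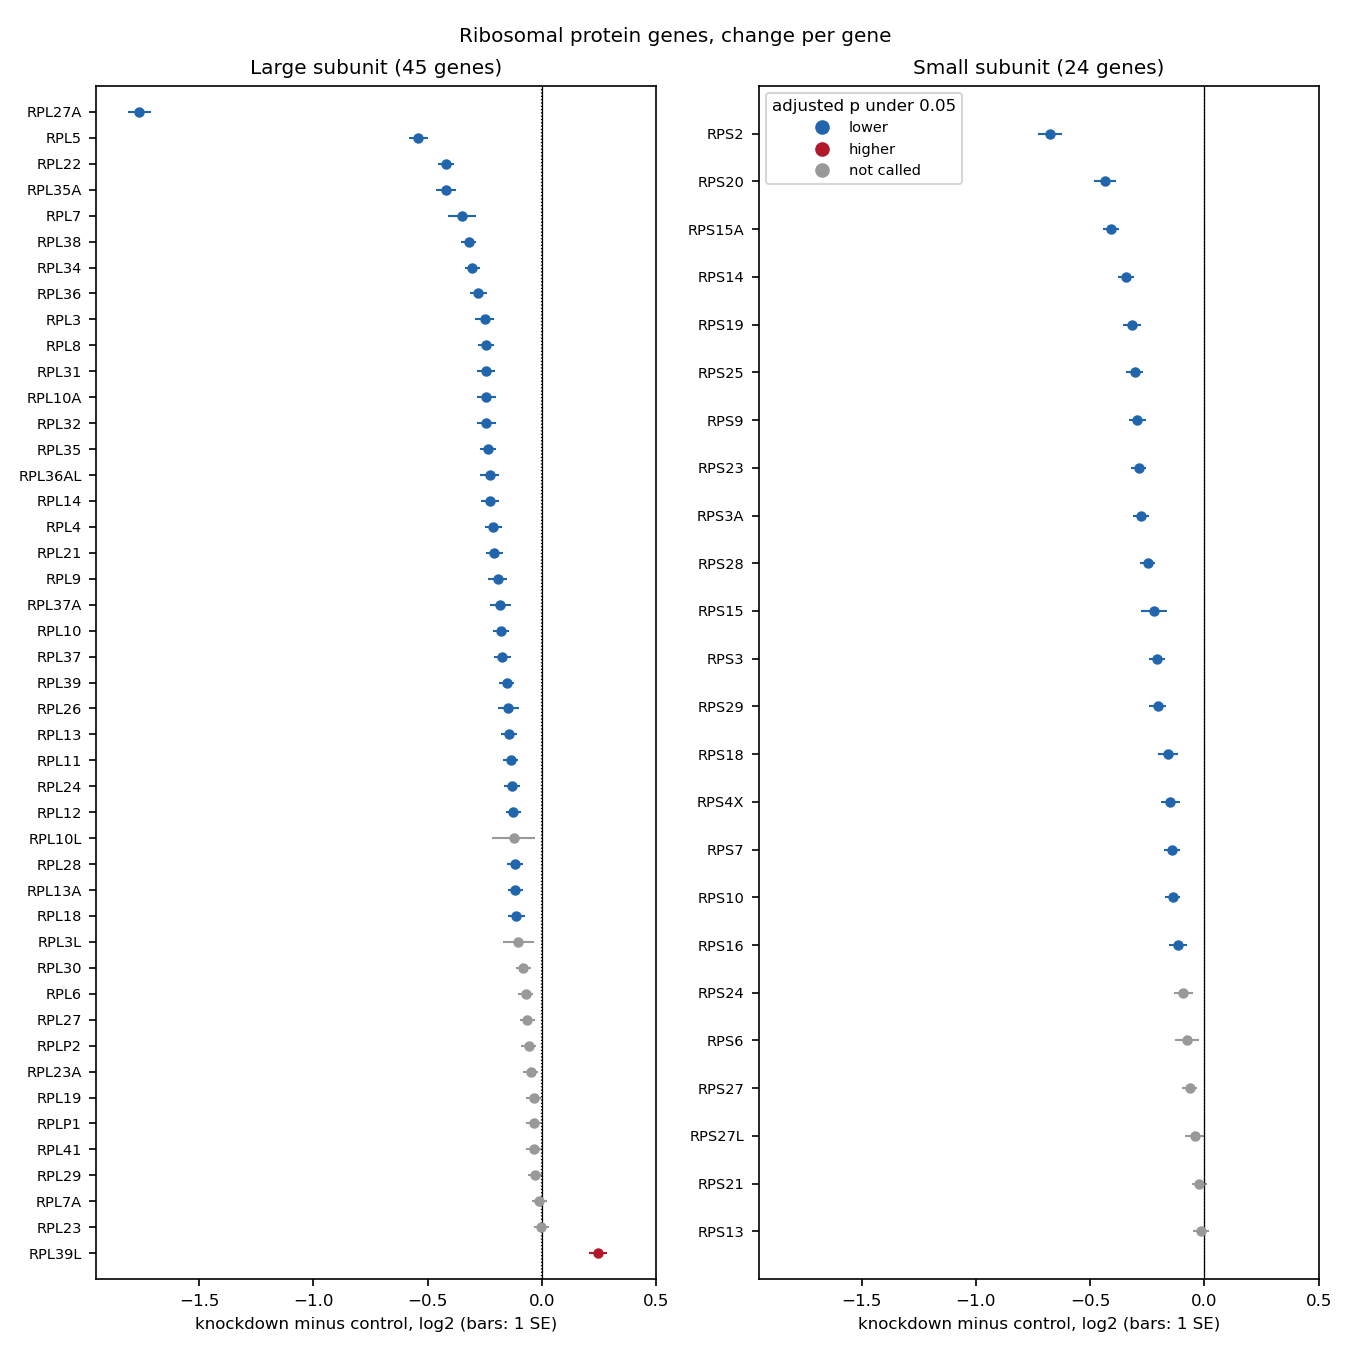
Change of each ribosomal protein gene in UBE2S knockdown against control cells (x axis, log2, bars 1 SE of the limma fit, n = 3 arrays per group), large subunit on the left and small subunit on the right. Blue genes fell, the red gene rose and grey genes did not pass the test, and the dotted line is the median of all genes at -0.0038. RPL27A lies far to the left at -1.76, and RPL39L is the only gene to the right of 0, at 0.25.

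Proteins of the large subunit are taken in the order of their place in the ribosome. The groups by place were put together after values were seen, and their counts are to be read beside the 71.0% of all members and the 18.6% of all genes that fell. RPL27A, a core protein of the large subunit, had the lowest value of all members. It stood at 0.97, 0.91 and 0.81 in the control arrays and at -0.81, -0.89 and -0.89 in the knockdown arrays. The groups did not overlap, and the change of -1.76 (SE 0.05, adjusted p = 3.02e-07 in limma) left 29.5% of the control signal. Among all genes, 15 had a lower change. RPL27A was read by 1 probe set of the kind without a letter before _at, so no other probe set with this symbol alone measures the fall.

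The 5S particle, made of 5S RNA, RPL5 and RPL11, is built before it joins the large subunit, and when free it binds and inhibits MDM2, the ligase of p53. RPL5 stood at 0.32, 0.23 and 0.28 in the control arrays and at -0.24, -0.24 and -0.31 in the knockdown arrays. Its change of -0.54 (SE 0.04, adjusted p = 2.44e-05 in limma) was given by both of its probe sets, at -0.53 and -0.56. Both carry the _x_at ending, so they may read near-identical copies. RPL11 stood at 0.060, 0.069 and 0.067 in the control arrays and at -0.082, -0.067 and -0.064 in the knockdown arrays. The groups were apart, and the change of -0.14 (SE 0.03, adjusted p = 0.0107 in limma) was the smaller of the pair. RPL23, another protein reported to bind MDM2, had the change nearest to 0 of all members, -0.0027 (SE 0.03), with values from -0.009 to 0.033 in control and from -0.002 to 0.008 in knockdown arrays. The change of MDM2 itself was -0.022 (SE 0.04), which missed the threshold.

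At the catalytic centre and the sites where subunits join, RPL3, RPL8 and RPL10 all fell, with changes between -0.25 and -0.18. RPL3, which lines the peptidyl transferase centre, gave -0.25 (SE 0.04), and RPL10, which is added last and is needed for subunit joining, gave -0.18 (SE 0.03). With probe sets free of the endings _a_at, _s_at and _x_at, RPL3 and RPL10 no longer passed the test, although the changes of -0.27 and -0.16 were of like size, with SEs of 0.09 and 0.11 for the 1 probe set of each. The 6 probe sets of RPL10 ranged from -0.50 to 0.025. Of 8 proteins of the exit tunnel and its rim, 6 fell, with a median of -0.18. RPL22 at the rim led them. It stood at 0.18, 0.25 and 0.19 in the control arrays and at -0.20, -0.21 and -0.22 in the knockdown arrays, a change of -0.42 (SE 0.04, adjusted p = 4.57e-05 in limma). RPL4, whose loop reaches into the tunnel, fell by 0.21, and RPL39, a small protein of the tunnel wall, fell by 0.15 (SE 0.03). RPL23A (-0.049) and RPL19 (-0.035) at the rim did not pass the test, although their groups did not overlap.

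The stalk recruits translation factors through the acidic proteins RPLP1 and RPLP2, and RPL12 sits at its base. RPL12 fell by 0.13 (SE 0.03). RPLP1 stood at 0.030, 0.004 and 0.012 in the control arrays and at -0.010, -0.016 and -0.034 in the knockdown arrays. The groups were apart, but the change of -0.035 (SE 0.03) did not pass the test, and neither did that of RPLP2, -0.058 (SE 0.03). The other large-subunit members among the 10 largest falls were RPL35A, RPL7 and RPL38. RPL35A stood at 0.26, 0.14 and 0.24 in control and at -0.20, -0.26 and -0.18 in knockdown arrays, a change of -0.42 (SE 0.05). RPL7 fell by 0.35 (SE 0.06) and RPL38 by 0.32 (SE 0.03), and in both the groups were apart.

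In the small subunit, where 18 of all 24 members fell, 5 of 5 proteins at the messenger RNA entry and the decoding site fell, with a median of -0.29. RPS2, at the entry, had the second lowest value of all members. It stood at 0.30, 0.38 and 0.30 in the control arrays and at -0.45, -0.32 and -0.29 in the knockdown arrays. The groups were far apart and the change of -0.68 (SE 0.05, adjusted p = 2.57e-05 in limma) left 62.6% of the control signal. Of its neighbours at the entry, RPS9 fell by 0.29 (SE 0.04) and RPS3, also a DNA repair protein, by 0.21 (SE 0.03). RPS23, which reaches into the decoding centre, fell by 0.29 (SE 0.03) and RPS15 by 0.22 (SE 0.06). RPS15 no longer passed the test without control array 1, knockdown array 1 or knockdown array 3.

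On the platform, where the messenger RNA leaves, 3 of 4 fell with a median of -0.26. RPS14, the gene whose loss marks the anaemia of the 5q- syndrome, stood at 0.17, 0.17 and 0.15 in the control arrays and at -0.20, -0.20 and -0.15 in the knockdown arrays. The spread within each group was small beside the change of -0.34 (SE 0.03, adjusted p = 1.14e-04 in limma). RPS3A fell by 0.28 and RPS28 by 0.25, and RPS27 stood at -0.064 (SE 0.03) without passing the test.

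In the head 7 of 7 fell, with a median of -0.21, beside 18 of 24 in the whole small subunit and 18.6% of all genes. RPS20 stood at 0.25, 0.23 and 0.16 in the control arrays and at -0.19, -0.17 and -0.31 in the knockdown arrays, a change of -0.44 (SE 0.05). RPS19, the first gene linked to Diamond-Blackfan anaemia, stood at 0.17, 0.12 and 0.11 in control and at -0.15, -0.18 and -0.23 in knockdown arrays, a change of -0.32 (SE 0.04). RPS10 gave a smaller change of -0.14 (SE 0.03) with the groups apart. RPS20, RPS10, RPS2 and RPS3 are ubiquitinated on stalled ribosomes, and all 4 fell. Of 15 measured genes linked to Diamond-Blackfan anaemia, an inherited failure of red cell production, 12 fell and 3 did not pass the test, with a median of -0.15 and a range of -0.54 to -0.064. RPS15A stood at 0.21, 0.18 and 0.17 in control and at -0.24, -0.25 and -0.18 in knockdown arrays, a change of -0.41 (SE 0.04).

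RPS6, the substrate of the S6 kinases, did not pass the test. It stood at 0.041, -0.013 and -0.002 in the control arrays and at 0.022, -0.051 and -0.18 in the knockdown arrays, so that the groups overlapped, and its change was -0.077 (SE 0.05). The other members that did not pass were RPL10L, RPL3L, RPS24, RPL30, RPL6, RPL27, RPS27, RPLP2, RPL23A, RPS27L, RPL19, RPLP1, RPL41, RPL29, RPS21, RPS13, RPL7A and RPL23, with changes between -0.12 and -0.0027. In 9 of these 19 members the knockdown arrays all lay below the control arrays, and over all genes the groups were apart in 23.9% downward and 26.2% upward. Over all members the SE was between 0.03 and 0.095, and the smallest fall that passed was that of RPL18 (-0.11).

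**Figure D2:**
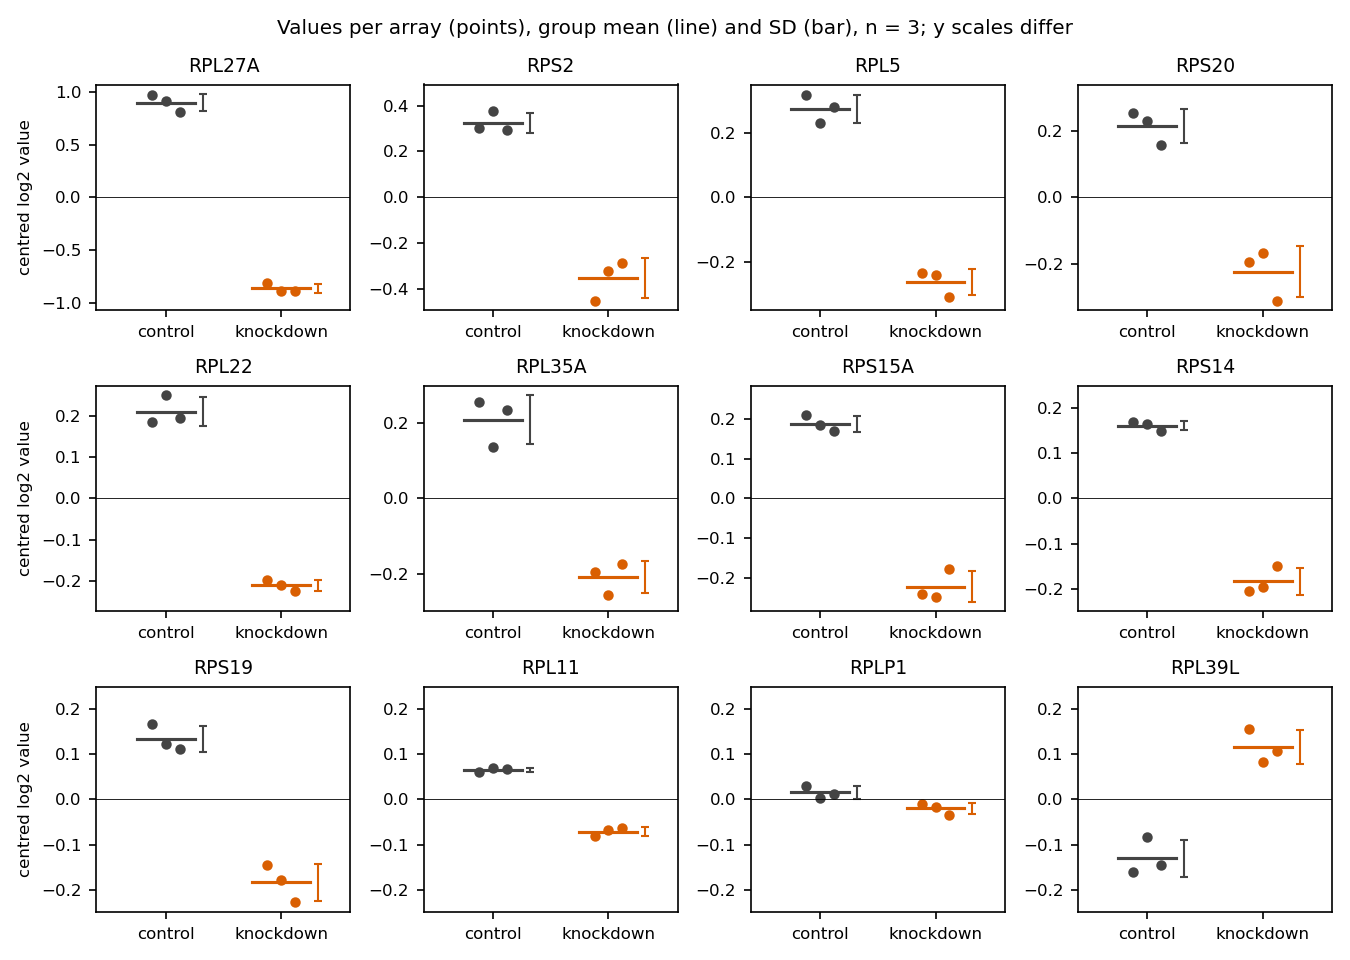
Centred log2 values of 12 ribosomal protein genes in each of the 3 control (grey) and 3 knockdown (orange) arrays, with the group mean as a line and the SD as a bar, on y axes that differ between panels. In 11 panels the knockdown arrays lie below the control arrays, with changes of -1.76 in RPL27A and -0.035 in RPLP1, and in RPL39L they lie above.

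RPL39L, a paralogue of RPL39 known for high levels in male germ cells, was the 1 member that rose. It stood at -0.16, -0.083 and -0.15 in the control arrays and at 0.16, 0.083 and 0.11 in the knockdown arrays, a rise of 0.25 (SE 0.04, adjusted p = 0.00143 in limma). Its parent RPL39 fell by 0.15. The difference between their changes was 0.40, with no overlap between the groups. Of 7 paralogue pairs measured, none could go below p = 0.1 in an exact two-sided permutation test over the 6 arrays, which was the value for 4 pairs (adjusted p = 0.175 over the 7). The rise of RPL39L was lost when the arrays were centred on the hybridization spike-ins (0.078).

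Other paralogues fall under the naming form too. RPS27L, a paralogue of RPS27 known as a p53 target, stood at 0.093, -0.028 and 0.041 in control and at -0.026, -0.017 and 0.021 in knockdown arrays. Its groups overlapped, with -0.042 (SE 0.04) beside -0.064 in RPS27. RPL3L, a muscle paralogue of RPL3, gave -0.10 (SE 0.07) and RPL10L, a paralogue of germ cells, gave -0.12 (SE 0.095), both with overlap and without passing the test. RPL36AL fell by 0.23 (SE 0.04).

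Outside the naming form, RPL22L1, a paralogue of RPL22, stood at 0.58, 0.41 and 0.46 in the control arrays and at -0.47, -0.53 and -0.42 in the knockdown arrays. Its change of -0.96 (SE 0.05) and that of RPL22 differed by -0.54, with p = 0.1 in the exact permutation test, the smallest it can give (adjusted p = 0.175 over the 7 pairs). RPL7L1 fell by 0.46 (SE 0.04) and RPL26L1 by 0.29 (SE 0.04). FAU, which encodes RPS30 fused to a ubiquitin-like protein, gave -0.018 (SE 0.04), short of the threshold. A further 38 probe sets had a ribosomal protein symbol joined with other symbols and are named to no gene here. Of these, 18 fell and 20 did not pass the test, with changes between -1.14 and 0.18. Over all probe sets 17.4% fell and 19.5% rose.

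The probe sets of a gene often disagreed. At the level of probe sets, 88 of 178 fell and 2 rose, where 17.4% of all 49293 fell and 19.5% rose (limma). Of 51 members with several probe sets, 24 (47.1%) gave different changes among their probe sets (F test of diffSplice in limma, adjusted p under 0.05), against 28.5% of all genes with several. That test takes the probe sets of a gene as independent although they share arrays. In 14 of the 51 the lowest and highest changes were over 0.5 apart, and in 25 they were less than 0.2 apart. In 28 of the 51 the probe set with the highest change lay within 0.1 of 0, and in 11 every probe set fell.

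RPL28, a protein of the large subunit, had the lowest adjusted p of this test, 1.85e-15 in limma. Of its 9 probe sets 1 gave -0.85 (SE 0.05), 1 more fell (-0.23) and the other 7 lay between -0.13 and 0.16 without passing the test. In RPS15A 2 probe sets gave -1.004 and -0.98, and the other 4 gave -0.20, -0.16, -0.12 and 0.0099. In RPS23 the probe sets gave -0.87, -0.020 and 0.030, so that 1 probe set carries the fall of the gene. For RPS28 they gave -0.78 and -0.63 beside 5 between -0.14 and 0.064. For RPS25 they gave -0.81, -0.29, -0.16 and 0.035.

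Several of the falls named above rest on some of the probe sets. RPS2 had -1.12 and -0.23, and RPS20 had -1.12, -0.17 and -0.017. RPL22 had -0.66 and -0.65 beside 0.048, RPS14 had -0.59 and -0.47 beside 0.021, and RPL35A had -0.74, -0.42 and -0.092. RPL32 had -0.82 beside -0.017 and 0.11, and its value turned to 0.048 without the _x_at probe set. RPS6 was the 1 member with probe sets called in both directions, -0.30 and -0.25 against 0.29 (SE 0.07). RPL8 (-0.25, -0.24 and -0.24), RPL5, RPL14 (5 probe sets from -0.27 to -0.20), RPL35 and RPLP1 had probe sets close together.

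**Figure D3:**
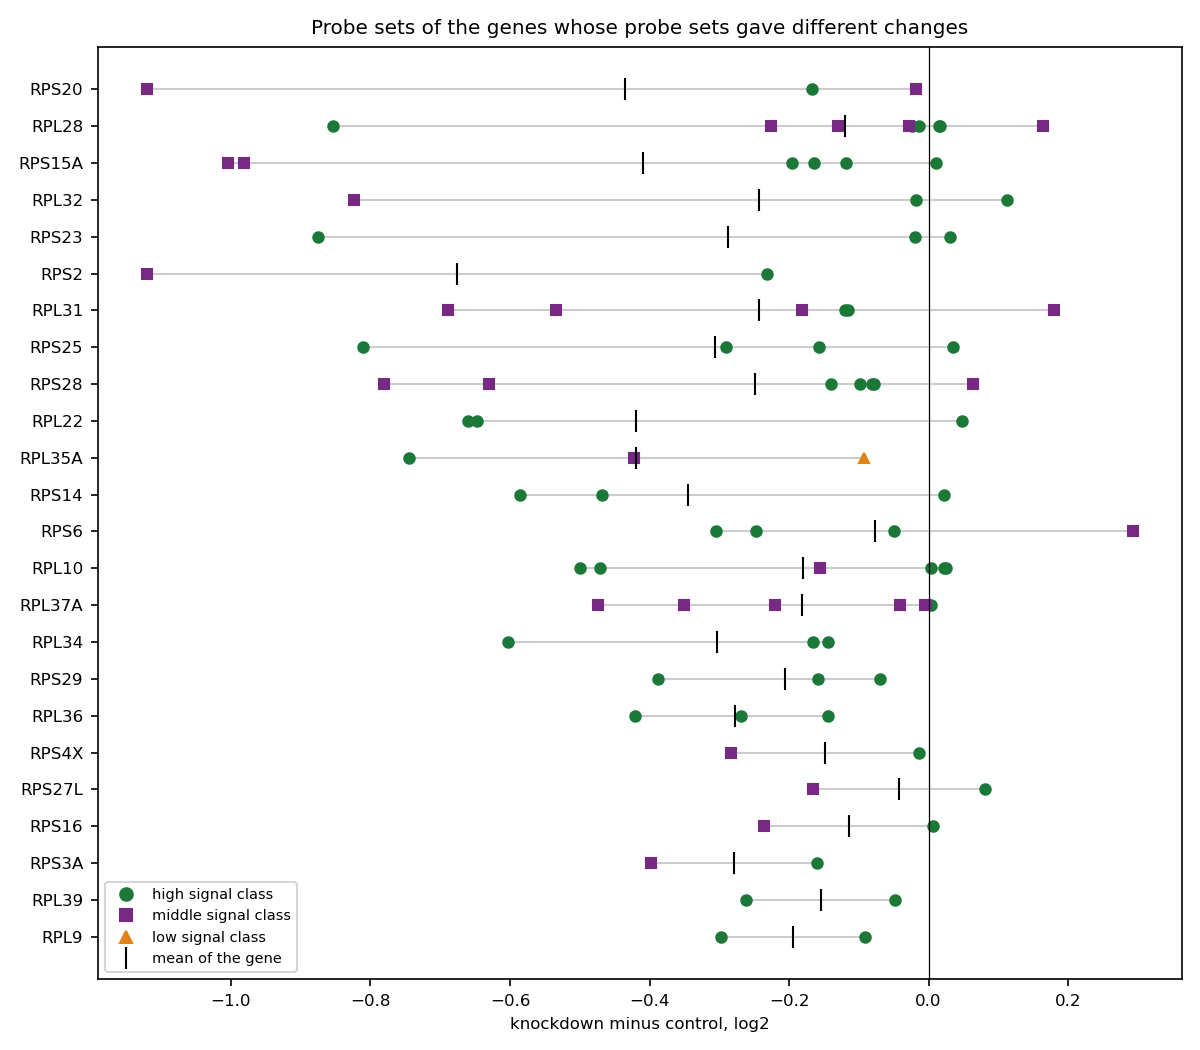
Change of each probe set (x axis, log2, knockdown minus control) for the 24 ribosomal protein genes whose probe sets gave different changes, ordered by the distance between the lowest and highest. Symbols give the signal class and the vertical tick is the mean used for the gene. In RPS20 the probe sets reach from -1.12 to -0.017, and in RPS23 1 probe set at -0.87 stands apart from the others near 0.

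The level of a probe set was removed by the centring, but the rounding of the values places it in a coarse class, high for log2 values between 8 and 16 before centring, middle for 4 to 8 and low for the rest. Of the member probe sets 74.7% were in the high class, against 25.7% of all probe sets. In the high class 67 of 133 member probe sets fell and 66 did not pass the test, with a median of -0.14, where 29.4% of all probe sets of that class fell. In the middle class 20 of 42 fell and 2 rose (median -0.22), where 16.2% of all 27338 probe sets of that class fell and 5733 rose. All 4 probe sets with falls of at least 2-fold, of RPL27A, RPS2, RPS20 and RPS15A, were in the middle class. With high-class probe sets alone, 51 of 65 genes fell with a median of -0.15, where 34.3% of all genes did, and the signs of RPS16 (0.0069), RPL37A (0.0040), RPL32 (0.048) and RPS27L (0.080) turned. For a strongly changed probe set the class can depend on the change itself.

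Probe sets of the _x_at ending gave a median of -0.17 over 85, of the _s_at ending -0.065 over 20, of the _a_at ending -0.15 over 22 and of the plain _at ending -0.21 over 31. Another 20 member probe sets carried the mark _PM_, and their median was -0.11, with 8 falls and a range from -0.29 to 0.014. Of all 100 probe sets with this mark 38 fell, with a median of -0.087, so the members' share there is near that of the kind. Of the members, 18 were read only by _x_at probe sets. How far reads of pseudogenes enter these values was not tested.

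Other genes of translation and ribosome assembly are set beside the members from lists. Counts of all lists are to be read beside the 18.6% of all genes that fell and the 21.4% that rose. Of 47 nucleolar assembly factors, which process ribosomal RNA and load the proteins, 40 fell and 1 rose (median -0.33). RRP15 fell by 0.82 (SE 0.10), LYAR by 0.79 and UTP20 by 0.77, while SBDS, which readies the large subunit for joining, rose by 0.35 (SE 0.04). The list of ribosomal protein chaperones and import receptors had 15 genes, of which 12 fell and 3 did not pass the test (median -0.25). BTF3, of the nascent chain complex, fell by 0.72, and the import receptors IPO5 and KPNB1 fell by 0.65 and 0.60. GRWD1, the chaperone of RPL3, fell by 0.31, BCCIP, that of RPL23, by 0.50, and TSR2, that of RPS26, by 0.17.

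Among 25 other measured genes whose messenger RNAs are known for a TOP tract, 21 fell and 1 rose (median -0.35). EEF1A1, the elongation factor that delivers aminoacyl-tRNA, fell by 0.79 (SE 0.04), EEF2, the translocation factor, by 0.31 (SE 0.03) and the poly(A)-binding protein PABPC1 by 0.27 (SE 0.03). TPT1, also of this kind, gave 0.050 (SE 0.03), short of the threshold. SNHG1, a host gene of small nucleolar RNAs, had the lowest value of the list, -0.92 (SE 0.07), and SNHG8 rose by 0.47 (SE 0.06). Members with a tract at the annotated start fell in 31 of 41 cases with a median of -0.15, and those without one in 11 of 16 cases with a median of -0.20. Over the 870 other measured genes with a tract at the start, 219 (25.2%) fell, 225 rose and the median was 2.69e-04. Of the 13498 without one 19.0% fell.

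Of 75 mitochondrial ribosomal proteins, which serve the separate ribosome of mitochondria, 38 fell and 8 rose (median -0.14). These counts stand beside 18.6% and 21.4% over all genes, and no test compares the groups.

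**Figure D4:**
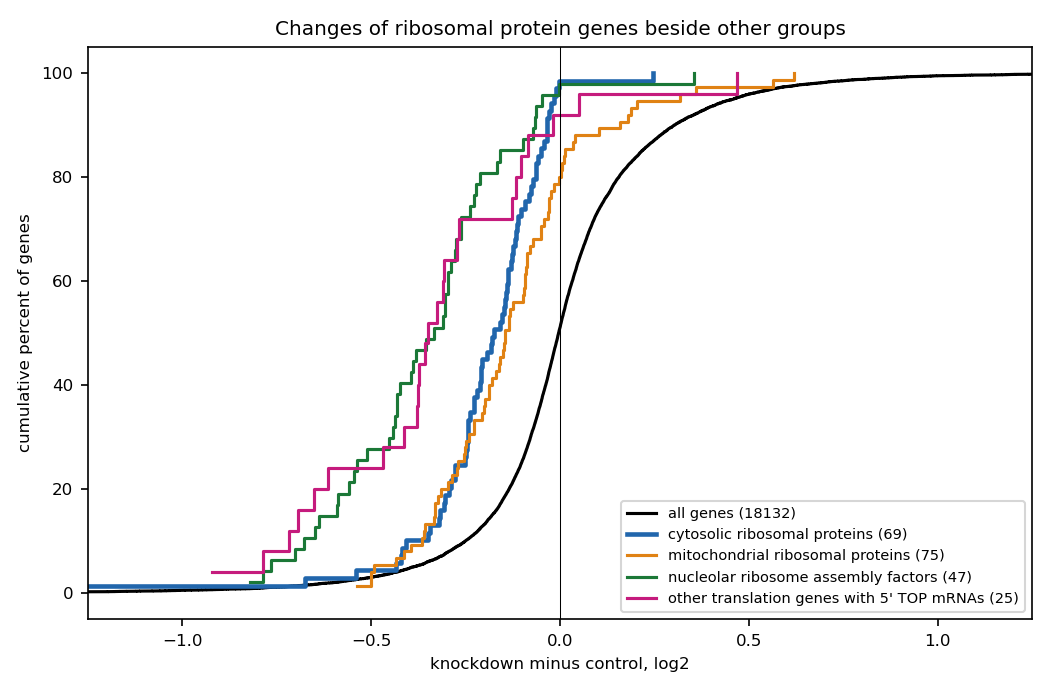
Cumulative percent of genes (y axis) against the change in knockdown cells (x axis, log2, cut at both ends) for the 69 cytosolic ribosomal proteins and 4 other sets, with the number of genes in brackets. The median is -0.17 for cytosolic and -0.14 for mitochondrial ribosomal proteins, -0.33 for assembly factors, -0.35 for other TOP genes and -0.0038 for all genes.

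Of 32 genes that control ribosomal protein synthesis, 9 fell and 9 rose, 28.1% each way (median -0.037). Over all genes 18.6% fell and 21.4% rose. MYC fell by 1.11 (SE 0.07), RPS6KA3 by 0.94 (SE 0.06) and LARP1 by 0.39 (SE 0.04). The kinase MTOR rose by 0.40 (SE 0.06), AKT1 by 0.30 and RPS6KA1 by 0.28.

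The sizes depend on how the arrays are scaled. Control transcripts added at hybridization were 0.168 higher in knockdown arrays, and those added to the RNA before labelling 0.080 higher, both without overlap. With the arrays centred on the first, the median of all genes moved to -0.17 and that of the members to -0.34. Then 68 members fell and RPL39L did not pass the test, where 50.7% of all genes fell, and at the second scaling 61 fell, where 30.6% did. Such centring moves every gene by the same amount, so the distance of 0.17 between the median of the members and that of all genes cannot change with it. Of the array's own checks of RNA integrity, the 3′ minus 5′ difference was 0.191 higher in knockdown arrays for ACTB, with the groups apart, and 0.023 higher for GAPDH, with overlap. The part of labelling, hybridization or RNA integrity in the falls was not tested.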

How the data were processed

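Total RNA of 3 knockdown and 3 control samples was hybridized to Affymetrix arrays. The authors deposited log2 values. The submitters' processing notes name RMA, affy and limma without versions or order. The log base is taken from RMA. In the deposited table each probe set is centred on its median over the 6 arrays (largest absolute median 4.85e-07).

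Of 49395 probe sets 102 are array controls, and 44988 have 1 symbol in the array's annotation, 1832 several and 2473 none. All 69 members matched a RefSeq gene by number and 0 symbols changed. A gene's value is the mean of its probe sets, without a filter. Groups were compared in R 4.3.3 by limma 3.58.1 (lmFit, eBayes), two-sided, with Benjamini-Hochberg adjustment over all genes or probe sets, and the SE is the moderated one. The methods were tested on simulated data. No label says that same-numbered arrays share a culture or day.

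Members and lists were chosen with earlier results of these data known. Named genes are the 10 largest falls, all rises, paralogues with parents, the 5 members with the strongest disagreement of probe sets, a panel by known role, and up to 3 genes per direction of each list. Groups by place in the ribosome, other members shown with their values or probe sets, and GRWD1, BCCIP, TSR2 and EIF5A were chosen after values were seen. Alternatives were the summary and kind of probe sets, scaling, signal class, variance model, weights, block, threshold, member rule and leaving out each array.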

Additional observations from a re-analysis of the deposited data

Results flagged for a closer look

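Some control probe sets, which were left out of the tests of genes and probe sets above, lay higher in the knockdown arrays. Their groups did not overlap. Those of 18S ribosomal RNA were 0.124 higher and those of 28S ribosomal RNA 0.212 higher, while ribosomal protein messenger RNAs were mostly lower. As given with the scaling above, the hybridization spike-ins were 0.168 higher, the poly-A spike-ins 0.0802 higher and the 3′ minus 5′ difference of ACTB 0.191 higher. Their part in the falls was not tested.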

How the results depend on the processing

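Changes of threshold and member rule aside, 18 alternatives were tried. Of the 69 members, 30 fell and 57 had a change below 0 under all of those in which they were measured. Left out in turn, the arrays gave 41 to 45 genes that fell (26 to 28 large, 14 to 17 small) and 1 that rose, medians from -0.187 to -0.162 over all members, -0.171 to -0.156 (large) and -0.208 to -0.189 (small), 68 to 77 probe sets that fell and 1 to 3 that rose. Of all genes 15.8% to 17.1% fell and 19.0% to 19.7% rose with an array left out. The calls of RPL18, RPL24, RPL28, RPL13A, RPL26, RPL37A, RPS4X, RPS15, RPS16 and RPS18 were lost without at least 1 array, and 39 falls held without each. Medians over all members, the large and the small subunit were -0.246, -0.215 and -0.289 with the probe set of largest variance, -0.147, -0.140 and -0.154 with the median of the probe sets, and -0.151, -0.147 and -0.155 with the high class alone. Without _x_at probe sets 31 genes fell (18 large), with medians of -0.208, -0.167 and -0.236. With probe sets free of _a, _s and _x 14 fell (5 large, 9 small), with -0.186, -0.137 and -0.271. Fewer genes were tested in both, and of all genes 18.1% and 11.8% fell. Centred on the hybridization spike-ins, no gene (0) and no probe set (0) rose in limma, 159 probe sets fell and the medians were -0.342, -0.322 and -0.374. At this scaling 50.7% of all genes fell, and the share over all probe sets was not counted. Centred on the poly-A spike-ins, 1 probe set rose, with -0.254, -0.235 and -0.287. Array weights gave -0.163 over all members and -0.195 for the small subunit, and the wider naming rule -0.177 (large) and -0.188 (small). At least 1.5-fold, 2 genes fell (1 large, 1 small) and 0 rose, where 2.16% of all genes fell and 2.76% rose. At an adjusted p under 0.01, 34 fell, where 13.1% of all genes did.

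Some signs turned. With probe sets free of _a, _s and _x, RPL28 gave 0.16, RPS6 0.29, RPS23 0.030 and RPL31 0.18, and of members not called RPLP2 gave 0.080 and RPS24 0.027. Without _x_at, RPS23 gave 0.0051 and RPL32 0.048. With the high class alone, RPL32 gave 0.048, RPS27L 0.080, RPS16 0.0069 and RPL37A 0.0040. RPL23, not called, gave 0.011 without control array 1. HEXIM1 gave -0.032 with the median of the probe sets and -0.016 with hybridization spike-ins, a scaling that sets every gene 0.168 lower. Beyond that shift and the probe sets left out or summarised otherwise, the cause was not tested.

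With the replicate number as a block 43 genes fell and 1 rose (73 and 2 probe sets), and RPL28, RPL18, RPL24, RPL13A, RPL12 and RPS16 no longer passed. Of all genes 16.9% fell and 19.9% rose with the block. Deviations of same-numbered arrays from their group means correlated at -0.019, -0.014 and -0.062, and no knockdown array correlated best with its own number. These values show no sign of pairing by number. They cannot exclude a shared culture or day, because deviations from group means hold the mean of such correlations near 0.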

Other observations

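Another list holds genes that add ubiquitin to ribosomal proteins, remove ubiquitin or act on stalled ribosomes. Of 24 measured 9 fell and 2 rose, with a median of -0.098. Of all genes 18.6% fell and 21.4% rose. ABCE1, which splits ribosomes for recycling, fell by 0.51 (SE 0.04), OTUD1 by 0.42 and USP9X by 0.40. ZNF598, the ligase of RPS10 and RPS20 on collided ribosomes, fell by 0.17 (SE 0.03), while TCF25, of the complex that clears stalled nascent chains, rose by 0.65 (SE 0.05) and EDF1, a collision sensor, by 0.18 (SE 0.04).

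Of 12 elongation factors and their modifying enzymes measured, 8 fell and 2 rose, with a median of -0.22. The shares over all genes were 18.6% and 21.4%. EEF1A1 fell by 0.79 and its tissue-restricted paralogue EEF1A2 rose by 0.37 (SE 0.05). EIF5A fell by 0.30 (SE 0.04) and its paralogue EIF5A2 rose by 0.70 (SE 0.04). DPH2 and DPH5, which make the diphthamide of EEF2, fell by 0.69 (SE 0.05) and 0.47 (SE 0.04). In the list around MDM2, 6 of 13 fell, among them NCL (-0.43), NOP53 (-0.38) and NPM1 (-0.31). The 3 that rose were ZMAT3 (0.41), CDKN2A (0.29) and HEXIM1 (0.15, but -0.016 with arrays centred on the hybridization spike-ins). Their share of 23.1% is near the 21.4% of all genes that rose.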
